A study of Mus musculus with 9 samples.

Results

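The 51 genes described here are interferon-stimulated genes, listed by symbol as nucleic acid sensors, transcription factors and antiviral effectors, with the Gbp, Irg and MHC genes left out. All 51 were found among the 28965 genes of the deposited table, and all 51 were among the 15002 genes tested. Mx1 and Mx2 are GTPases of the dynamin type and were kept in the list. The cells were 3T3-L1, a wild-type mouse line of adipocyte precursors labelled as fibroblasts, and every library came from a culture that had spent 24 h in an adipogenic cocktail of 0.1 µg/mL dexamethasone, 30 µg/mL isobutylmethylxanthine and 0.1 µg/mL insulin. The OA_T0 group also received 100 µM oleic acid bound to bovine serum albumin and 5 µM T0901317, which activates the liver X receptors. The OA group received the same oleic acid alone, and the MDI group received albumin as vehicle. Each group had 3 libraries of poly(A) RNA. T0901317 was never given without oleic acid, and a culture without the cocktail was not analysed here. The labels do not say whether the libraries of a group came from separate cultures, and a p-value here may reflect only technical variation.

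Type I interferon binds a receptor of IFNAR1 and IFNAR2, whose kinases JAK1 and TYK2 signal to a complex that holds STAT2 and IRF9 and binds the interferon-stimulated response element (ISRE) in promoters. This complex raises transcription of many of the genes described here. Several of their products, such as the RNA sensors encoded by Ifih1 and Ddx58, lie upstream of interferon production, so the pathway feeds itself. Fibroblasts hold a low tonic level of this signal in the absence of infection.

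The promoters are shown first, because the ISRE can be looked for in them. RefSeq promoter windows of build GRCm38.p6, reaching from 250 bases before to 50 bases after each annotated start, were matched for 39 of the 51 genes, and not for Dhx58, Ifi204, Ifi27, Mx1, Mx2, Oas2, Parp14, Parp9, Plscr2, Rtp4, Usp18 and Zbp1. The ISRE core, spelled GAAA, then any 2 bases, then GAAA, and read on both strands, occurred in 17 of these 39 genes (43.6%), against 3.99% of the 27025 genes with a window. The GAS core TTCNNNGAA, an element known from the interferon gamma response and also read on both strands, occurred in 8 of 39 (20.5%), against 9.55% of all genes. A match describes the letters and is not evidence of binding. The stretches around the first ISRE core are printed for the 8 genes with the highest mean value among those with a match that the naming rule covers. Bst2, which had 2 cores, lies outside that rule and is not printed. Capitals mark the ISRE cores, which can overlap, and letters follow the gene's strand. Where the core lies after the start, at most 30 bases are shown.
Isg15, chr4:156200842-156200941 (-): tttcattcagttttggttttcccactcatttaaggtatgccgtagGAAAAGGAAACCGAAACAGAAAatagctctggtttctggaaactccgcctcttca
Ifit1, chr19:34640740-34640839 (+): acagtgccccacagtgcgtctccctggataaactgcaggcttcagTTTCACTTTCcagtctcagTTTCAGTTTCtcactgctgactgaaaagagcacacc
Ifit3, chr19:34583328-34583427 (+): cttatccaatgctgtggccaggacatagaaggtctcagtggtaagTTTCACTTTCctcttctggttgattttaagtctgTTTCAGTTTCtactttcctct
Stat2, chr10:128270248-128270330 (+): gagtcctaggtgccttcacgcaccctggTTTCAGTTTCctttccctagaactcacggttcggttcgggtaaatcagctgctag
Trim30a, chr7:104465194-104465274 (-): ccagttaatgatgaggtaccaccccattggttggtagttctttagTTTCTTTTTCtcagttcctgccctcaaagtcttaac
Eif2ak2, chr17:78882535-78882564 (-): agtccgccggGAAAACGAAAcagaagagaa
Ddx58, chr4:40239804-40239833 (-): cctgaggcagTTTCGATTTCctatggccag
Ifih1, chr2:62646206-62646233 (-): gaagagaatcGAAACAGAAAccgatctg
Isg15 held 3 overlapping cores, the first beginning 78 bases before the start. Ifit1 and Ifit3 held 2 each, beginning 104 and 156 bases before their starts. In Eif2ak2, Ddx58 and Ifih1 the core lay within 50 bases after the annotated start.

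Values are the authors' normalised read counts. Estimated depths were 17.98 M to 29.3 M fragments in OA_T0, 21.4 M to 29.3 M in OA and 25.6 M to 59.9 M in MDI, and the floor of 3 fragments lay between 1.35 and 4.62 normalised counts. The share of the deposited total held by 1 ribosomal RNA gene was 3.06% in OA_T0 replicate 3 and 0.649% in OA replicate 1, against 4.40% to 5.96% in the other 7 libraries. Both libraries stood apart in this share, and counts of genes are given with and without them. OA_T0 replicate 3 also had the lowest estimated depth. The 9 histone genes matched by name summed to 8172 there, against 3768 to 6063 in the other libraries. Their mean log2 difference from MDI was -0.45 there, beside -0.42 and -0.50 in OA_T0 replicates 1 and 2. The part of these differences in the results was not tested. All 8 fibroblast and preadipocyte markers were detected in every library. Their summed values were 242588 to 285263 in OA_T0, 285420.0 to 311590.0 in OA and 265023 to 284147 in MDI. Of 8 macrophage markers, Adgre1 was listed at 0 in every library, and the 8 together summed to 103 to 150.2 in OA_T0, 105 to 141 in OA and 100.01 to 133 in MDI. The 3 lymphocyte and plasmacytoid dendritic cell markers found in the table, of 5 listed, lay at or below the floor in every library. The 7 adipocyte markers summed to 10604 to 11435 in OA_T0, 12582 to 13695 in OA and 6898 to 7551 in MDI, so this sum moved with the groups. Most of it was Lpl, which averaged 8651 in OA_T0, 9358 in OA and 5424 in MDI. Adipoq and Plin1 were at most 6.76 and 6.71 in any library. Of the 5 tested, 3 rose in OA against MDI (3.43% of all tested genes), and Pparg and Cebpa did not pass (limma adjusted p = 0.848 and 0.413). The part of the sum in the results was not tested. In bulk RNA, fewer cells of a type and less RNA per cell cannot be told apart.

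The listed interferon-stimulated genes were lower in cells given oleic acid and T0901317 than in vehicle cells. They were chosen with earlier results of these data known. The shares over all tested genes set beside their counts, here and below, are therefore a description. In OA_T0 against MDI, 44 of 51 fell and 0 rose at an adjusted p below 0.05, against 1.36% of all tested genes lower and 1.25% higher. The median log2 fold change was -1.17, which is 0.443 times the vehicle level, beside 0.02 over all tested genes, and individual genes ranged from -2.61 (Apol9b) to -0.17 (Isg20). In 48 of 51 genes the 3 OA_T0 libraries all lay below the 3 MDI libraries, as in 10.2% of all tested genes, and in 0 of 51 all above (13.3%). At an unadjusted p below 0.05, 50 genes were lower (7.87% of all tested genes) and 0 were higher (10.6%). In 31 of 51 the log2 fold change was -1 or lower, as in 1.22% of all tested genes, and it was below 0 in 51 of 51, as in 45.6%. The number called lower depended on single libraries. It was 6 without MDI replicate 1 (0.407% of all tested genes), 9 without MDI replicate 2 (0.347%), 6 with OA_T0 replicate 1 left out (0.293%) and 19 with OA_T0 replicate 2 left out (1.22%). With each of the other 5 libraries left out it was 42 to 47. It was also 7 with robust variance estimates (0.88% of all tested genes), and 0 with no filter on low values (0.141%). With no filter, 50 were lower at an unadjusted p below 0.05, and the share over all genes was not determined in that fit. With the filter that share was 7.87%. All 51 genes had a log2 fold change below 0 when each library was left out in turn. Ifih1, Trim30a, Samd9l and Dtx3l were the only genes of the 51 called in every such fit.

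Values were also lower in cells given oleic acid alone, with fewer genes passing the test. In OA against MDI, 13 of 51 genes fell and 0 rose, against 3.36% of all tested genes lower and 3.43% higher. The median log2 fold change was -0.83, or 0.564 times the vehicle level, beside 0.01 over all tested genes. In 40 of 51 genes the OA libraries all lay below the MDI libraries, as in 12.6% of all tested genes, and in 0 of 51 all above (13.4%). At an unadjusted p below 0.05, 45 genes were lower (10.1% of all tested genes) and 0 were higher (11.1%). In 23 of 51 the log2 fold change was -1 or lower, as in 0.64% of all tested genes, and it was below 0 in 51 of 51, as in 46.7%. The test pools the spread of all 3 groups, and OA_T0 was the most variable. With only the OA and MDI libraries in the fit, 44 of 51 fell, against 4.0% of all tested genes. Leaving out OA_T0 replicate 2 gave 35 genes (4.15% of all tested genes), OA_T0 replicate 3 gave 44 (4.26%), and OA replicate 1 gave 23 (1.91%). The number was 1 when MDI replicate 1 was left out (2.0%), 0 for MDI replicate 2 (1.03%), 2 for OA replicate 2 (2.11%) and 4 for OA replicate 3 (2.76%). At an unadjusted p below 0.05, limma then gave 32, 40, 31 and 38 genes lower, in that order. The share over all tested genes at that p was not determined in these fits. With all libraries in the fit that share was 10.1%. None of the 51 genes was therefore called in every fit that left out 1 library. OA against MDI and OA_T0 against MDI share the MDI libraries, so they are not independent of each other.

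**Figure D1:**
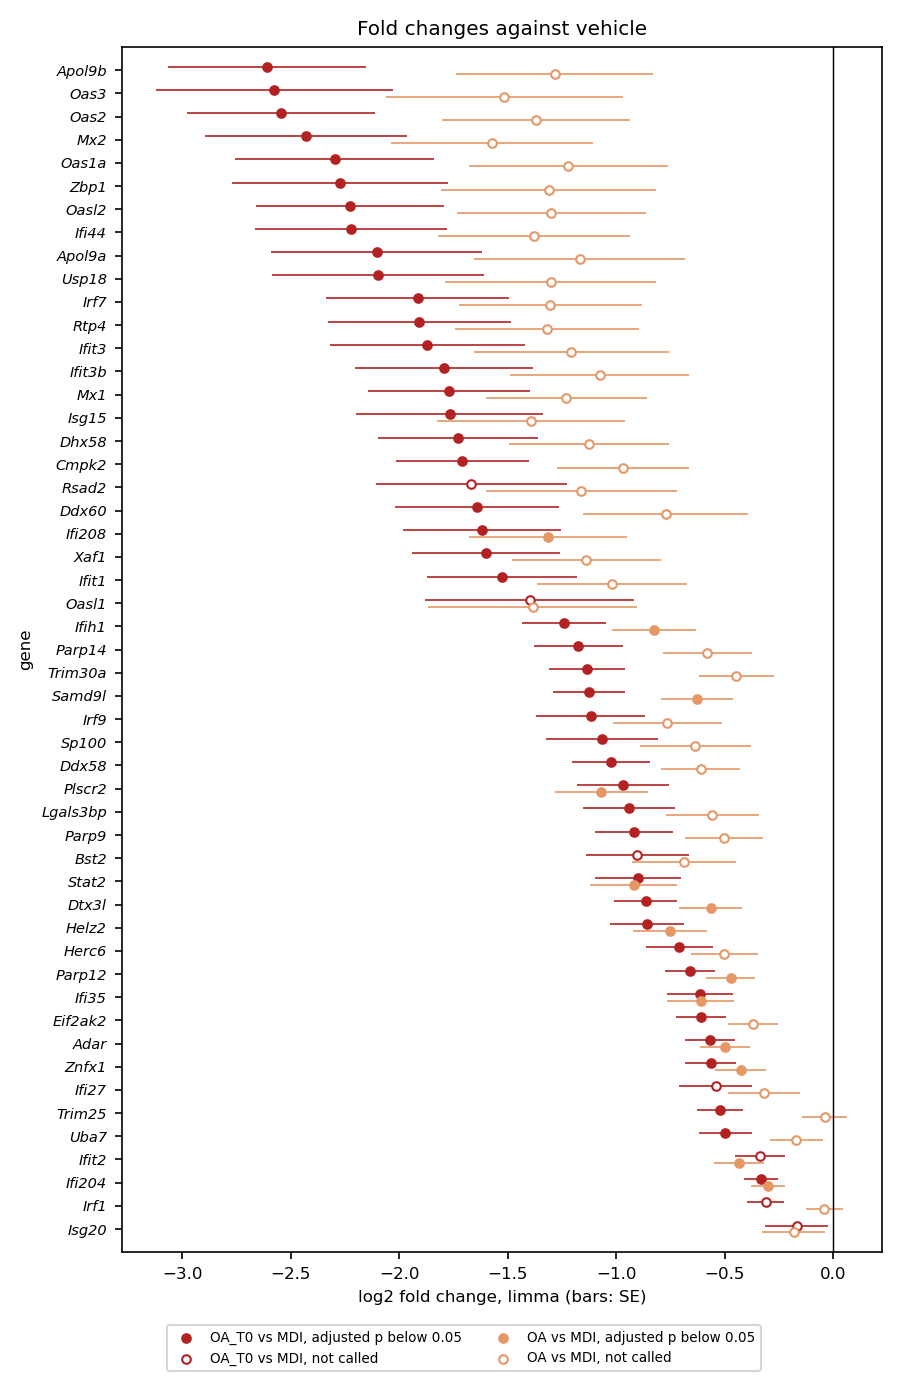
Log2 fold change of each of the 51 genes against MDI (horizontal axis; bars are SE), with OA_T0 vs MDI in red above OA vs MDI in orange; filled points passed at an adjusted p below 0.05. All points lie left of 0, and 44 of the OA_T0 points and 13 of the OA points are filled.

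Among the nucleic acid sensors, all 7 fell in OA_T0 against MDI (1.36% of all tested genes) and 3 fell in OA against MDI (3.36%). Where genes are said below to lie under MDI without overlap, the shares over all tested genes were 10.2% in OA_T0 and 12.6% in OA. Ifih1, which encodes the sensor of long double-stranded RNA MDA5, had normalised counts of 248, 191 and 381 in OA_T0, 437, 286 and 342 in OA, and 649, 628 and 587 in MDI. Every OA_T0 and OA library of Ifih1 lay below every MDI library. Its log2 fold change was -1.24 (SE 0.19, adjusted p = 0.0024) in OA_T0 against MDI, a call kept in all 9 fits that left out 1 library, and -0.83 (SE 0.19, adjusted p = 0.0187) in OA against MDI, kept in 5 of 9 (adjusted p = 0.0861 without MDI replicate 2). Ddx58, encoding RIG-I, which senses RNA with triphosphate ends, had 1507, 1357 and 2491 in OA_T0, 2863, 1912 and 2199 in OA, and 3883, 3604 and 3065 in MDI. The MDI libraries of Ddx58 were the highest, with no overlap, and its log2 fold change was -1.02 (SE 0.18, adjusted p = 0.00616) in OA_T0 against MDI. Dhx58, encoding LGP2, a regulator of these sensors, had 76.6, 54.3 and 220.3 in OA_T0, 211, 127 and 121 in OA, and 421, 296 and 275 in MDI. Ddx60, a helicase linked to RIG-I signalling, had 78.6, 52.3 and 206 in OA_T0, 269.6, 138 and 141 in OA, and 403, 289 and 226 in MDI. OA replicate 1 of Ddx60 overlapped with MDI, and all OA_T0 libraries lay below. Zbp1, a sensor of nucleic acids in the Z form that can trigger necroptosis, had 31.0, 11.1 and 75.5 in OA_T0, 96.2, 42.9 and 50.2 in OA, and 227, 136 and 106 in MDI. Zbp1 had the lowest log2 fold change of these 7 genes, at -2.27 (SE 0.50, adjusted p = 0.0238) in OA_T0 against MDI, and OA_T0 replicate 2 was the lowest library. The call of Zbp1 was kept in 5 of 9 fits that left out 1 library. Ifi204, of the DNA-binding family with a HIN domain, had 10028, 10429 and 12233 in OA_T0, 12179, 10734 and 10426 in OA, and 14166, 13667 and 13174 in MDI. Its log2 fold change was small, at -0.33 (SE 0.08, adjusted p = 0.0353) in OA_T0 and -0.30 (SE 0.08, adjusted p = 0.0305) in OA against MDI. Each call was kept in 5 of 9 fits that left out 1 library. Ifi208, of the same family, had 21.7, 14.1 and 46.2 in OA_T0, 41.4, 26.8 and 24.8 in OA, and 104, 70.7 and 61.4 in MDI. It fell in both comparisons, with log2 fold changes of -1.62 in OA_T0 and -1.31 in OA against MDI. These calls were kept in 5 of 9 such fits in OA_T0 and in 4 of 9 in OA.

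Of the 4 transcription factor genes, 3 fell in OA_T0 against MDI (1.36% of all tested genes) and 1 in OA against MDI (3.36%). Stat2, a subunit of the complex that binds the ISRE, had 691, 734 and 1253 in OA_T0, 1092, 696 and 801 in OA, and 1948, 1605 and 1320.5 in MDI. Its log2 fold change was -0.90 (SE 0.20, adjusted p = 0.0262) in OA_T0 and -0.92 (SE 0.20, adjusted p = 0.0122) in OA against MDI, with no overlap with MDI in either. These calls were kept in 5 of 9 fits that left out 1 library in OA_T0 and in 7 of 9 in OA. Irf9, which gives the STAT complex its DNA specificity, had 622, 412 and 1117 in OA_T0, 1058, 674 and 839 in OA, and 1639.6, 1429.8 and 1251 in MDI. Irf7, needed for strong production of interferon alpha, had 90.0, 54.3 and 273 in OA_T0, 262, 110.0 and 167 in OA, and 526, 411 and 338 in MDI. Irf9 and Irf7 fell in OA_T0 against MDI, at -1.12 (SE 0.25, adjusted p = 0.0278) and -1.91 (SE 0.42, adjusted p = 0.0254), each kept in 5 of 9 such fits. Neither passed in OA against MDI (adjusted p = 0.0848 and 0.0801). Irf1, an early factor shared with interferon gamma, had 1397, 1408 and 1487 in OA_T0, 1838, 1521 and 1842 in OA, and 1621, 1748 and 1974 in MDI. Its OA and MDI libraries overlapped, its log2 fold change being -0.04 (SE 0.08, adjusted p = 0.843), and the OA_T0 libraries lay below both groups. The change in OA_T0 against MDI was -0.31 (SE 0.08, adjusted p = 0.0661).

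**Figure D2:**
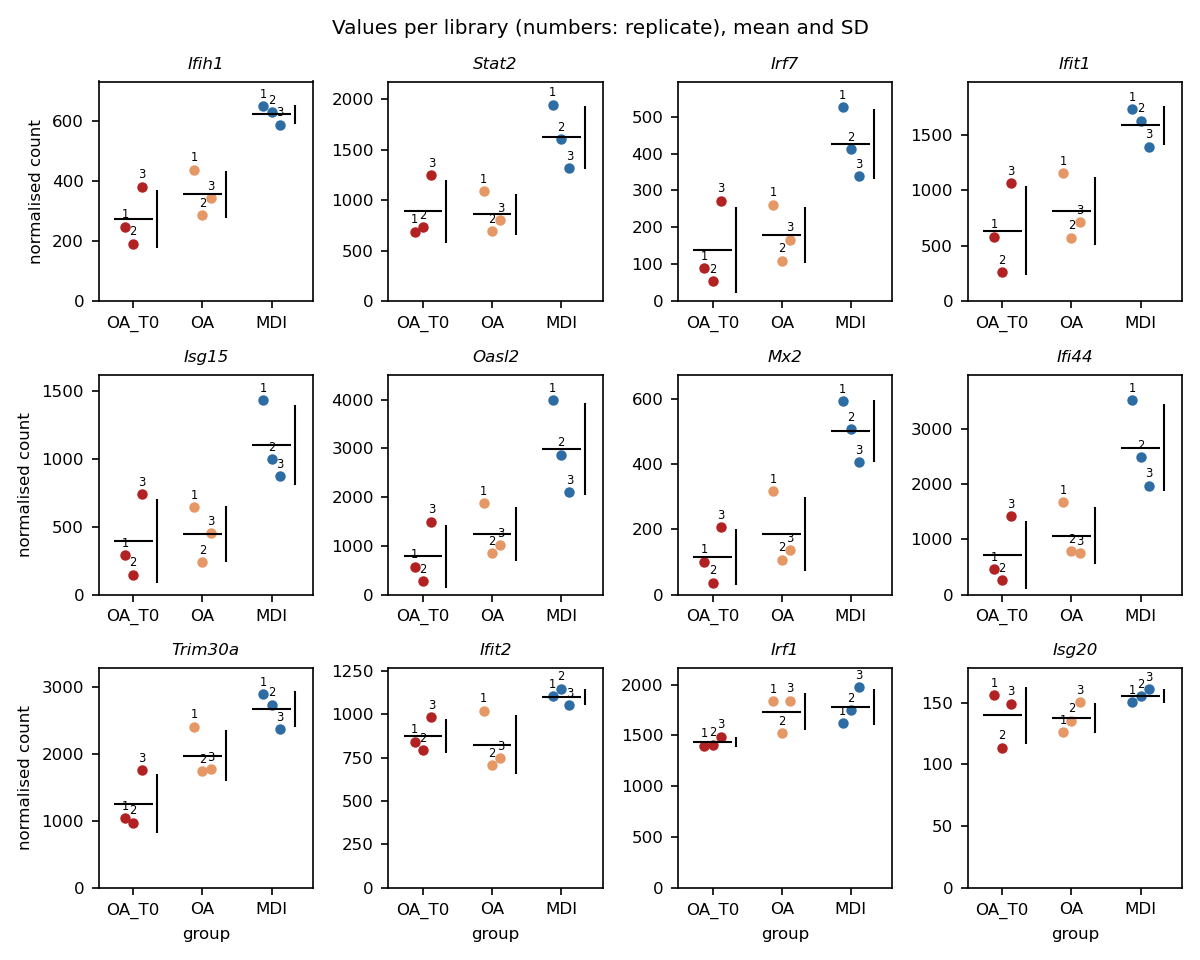
Normalised counts of 12 genes (vertical axis, from 0) in each library of OA_T0, OA and MDI; numbers are replicates, horizontal bars are means and vertical bars SD (n = 3). In Ifih1, Irf7, Ifit1, Oasl2 and Ifi44 replicate 3 is the highest OA_T0 library and replicate 1 the highest OA library; Irf1 and Isg20 do not show this order.

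The products of the 4 IFIT genes bind foreign RNA and hold back its translation. Of these genes, 3 fell in OA_T0 against MDI (1.36% of all tested genes) and 1 in OA against MDI (3.36%). Ifit1 had 581, 264 and 1063 in OA_T0, 1155, 571 and 711 in OA, and 1731, 1625 and 1393 in MDI, and its log2 fold change was -1.53 (SE 0.35, adjusted p = 0.0297) in OA_T0 against MDI. Ifit3 had 355, 137 and 814 in OA_T0, 931, 345 and 494 in OA, and 1438, 1290.0 and 1057 in MDI. Ifit3b, its near copy, had 133, 42.6 and 212 in OA_T0, 273, 134 and 148 in OA, and 445, 393 and 294 in MDI. In all 3 genes no OA_T0 or OA library reached the lowest MDI library. Ifit3 and Ifit3b share reads: 51.2% of the distinct 50-base stretches of Ifit3 transcripts occur in Ifit3b, and 44.5% the other way round. Their values are therefore uncertain relative to each other. Ifit2, which has been linked to apoptosis, had 843, 793 and 985 in OA_T0, 1021, 707 and 746 in OA, and 1103, 1148 and 1051 in MDI. It was the IFIT gene that passed in OA against MDI, at -0.43 (SE 0.12, adjusted p = 0.0362), a call kept in 4 of 9 fits that left out 1 library. In OA_T0 against MDI it was -0.34 (SE 0.12, adjusted p = 0.143). Ifit1, Ifit3 and Ifit3b had lower log2 fold changes in OA against MDI, at -1.02, -1.21 and -1.08, with wider SE (0.35, 0.45 and 0.41). Without OA_T0 replicate 3 these 3 genes passed (adjusted p = 0.0119, 0.0191 and 0.043). Ifit2, Ifit3, Ifit3b and Ifit1 are neighbours in that order, with at most 1 other protein-coding gene between them in RefSeq.

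In the ISG15 system and among ubiquitin ligases, 6 of 6 fell in OA_T0 against MDI (1.36% of all tested genes). In OA against MDI 0 fell (3.36%). Isg15, a ubiquitin-like protein joined to other proteins, had 291, 146 and 739.6 in OA_T0, 646, 236 and 451 in OA, and 1434, 999.8 and 871 in MDI. Its OA_T0 and OA means were 392 ± 309.6 and 444 ± 205, against 1102 ± 295 in MDI (SD, n = 3 each). The log2 fold change was -1.77 (SE 0.43, adjusted p = 0.0428) in OA_T0 against MDI and -1.39 (SE 0.43, adjusted p = 0.0683) in OA against MDI. The call in OA_T0 was kept in 4 of 9 fits that left out 1 library (adjusted p = 0.193 without MDI replicate 1). Usp18, which removes ISG15 and restrains the interferon receptor, had 121, 59.3 and 394 in OA_T0, 384, 149 and 264 in OA, and 827, 644 and 427 in MDI. Uba7, the activating enzyme for ISG15, had 221, 246 and 271 in OA_T0, 322, 260.3 and 349 in OA, and 369.9, 352 and 320.0 in MDI. Usp18 spanned a wide range within OA_T0, and Uba7 a narrow one, with log2 fold changes of -2.10 and -0.50. Herc6, the ISG15 ligase of mice, had 460.0, 379 and 579.5 in OA_T0, 668, 507 and 461 in OA, and 891, 729.7 and 681 in MDI. Trim25, a ubiquitin ligase that acts on RIG-I, had 2802, 2593 and 3611 in OA_T0, 4491, 3828 and 4169 in OA, and 4537, 4527 and 3787 in MDI. In Trim25 the OA libraries lay among the MDI libraries, and all OA_T0 libraries lay below both. Its log2 fold change was -0.52 (SE 0.11, adjusted p = 0.0147) in OA_T0 against MDI and -0.04 (SE 0.11, adjusted p = 0.88) in OA against MDI. The call in OA_T0 was kept in 5 of 9 such fits. Trim30a, a mouse protein that dampens NF-kB signalling, had 1042, 972 and 1762 in OA_T0, 2414, 1750.1 and 1771 in OA, and 2900.1, 2744 and 2379.6 in MDI. Its change in OA_T0 against MDI, -1.14 (SE 0.17, adjusted p = 0.00213), was called in all 9 fits that left out 1 library.

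Among the OAS genes and other RNA enzymes, 8 of 10 fell in OA_T0 against MDI (1.36% of all tested genes). In OA against MDI 3 fell (3.36%). The oligoadenylate synthetases make a messenger that activates RNase L. Oas1a had 27.7, 20.1 and 94.5 in OA_T0, 143, 56.0 and 65.1 in OA, and 284, 170.4 and 139 in MDI, and Oas2 had 30.0, 13.1 and 50.8 in OA_T0, 119, 41.6 and 50.2 in OA, and 251, 139 and 126 in MDI. Oas3 had 2.07, 3.02 and 15.4 in OA_T0, 14.5, 10.7 and 9.03 in OA, and 49.1, 27.2 and 29.3 in MDI. The values of Oas3 in OA_T0 replicates 1 and 2 were at or below the floor of 3 fragments, which was 3.10 and 3.02 there. Oasl2, a related protein, had 573, 272 and 1498 in OA_T0, 1879, 851 and 1012 in OA, and 3985, 2873 and 2106 in MDI. Oas2 and Oasl2 fell in OA_T0 against MDI, with log2 fold changes of -2.54 and -2.23, and in OA against MDI neither passed, at -1.37 and -1.30. Oas1a has near copies in the mouse genome, so its value is uncertain. For all 4, the OA_T0 libraries lay below the MDI libraries. Eif2ak2, encoding PKR, which halts translation when it binds double-stranded RNA, had 2614, 2444 and 3489.8 in OA_T0, 3839, 3176 and 3009.6 in OA, and 4604, 4399.7 and 3908 in MDI. Adar, which edits adenosine to inosine in double-stranded RNA, had 1463, 1464 and 1979 in OA_T0, 1847, 1468 and 1797 in OA, and 2626, 2442 and 2149 in MDI. Eif2ak2 and Adar fell in OA_T0 against MDI at -0.61 (SE 0.12, adjusted p = 0.011) and -0.57 (SE 0.11, adjusted p = 0.0149), and Adar in OA against MDI too, at -0.50 (SE 0.11, adjusted p = 0.0165). Helz2, a helicase also described as a coactivator of PPAR receptors, had 905, 855 and 1433 in OA_T0, 1309, 928 and 1136 in OA, and 2229, 1856 and 1597 in MDI. Znfx1, an RNA helicase, had 1109, 982 and 1487 in OA_T0, 1347, 1193 and 1346 in OA, and 1921, 1703 and 1602 in MDI. Helz2 and Znfx1 fell in both comparisons with MDI, with log2 fold changes of -0.86 and -0.56 in OA_T0 and -0.75 and -0.43 in OA. In OA the call of Helz2 was kept in 6 of 9 fits that left out 1 library, and that of Znfx1 in 3 of 9. Oasl1 and Isg20 did not pass. Isg20, an exonuclease, had 156, 114 and 149 in OA_T0, 126, 136 and 151 in OA, and 150.3, 156 and 161 in MDI, and its 3 groups overlapped. Oasl1 had 6.21, 5.03 and 12.3 in OA_T0, 14.5, 5.37 and 5.02 in OA, and 26.1, 17.4 and 20.3 in MDI, at -1.40 (SE 0.48, adjusted p = 0.143) in OA_T0 against MDI.

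Of Mx1, Mx2, Rsad2, Cmpk2 and Samd9l, 4 fell in OA_T0 against MDI (1.36% of all tested genes) and 1 in OA against MDI (3.36%). None of the 5 overlapped with MDI in either comparison, beside 10.2% of all tested genes lower without overlap in OA_T0 and 12.6% in OA. Mx1 had 161, 80.4 and 338 in OA_T0, 364, 172 and 217 in OA, and 716, 516 and 477 in MDI, and Mx2 had 101, 36.2 and 207 in OA_T0, 317, 107 and 135 in OA, and 595, 508 and 406 in MDI. These genes encode GTPases that trap viral components. Mx2 had the lowest log2 fold change of the 51 genes in OA against MDI, -1.57 (SE 0.46, adjusted p = 0.0556), which did not pass, and -2.43 (SE 0.46, adjusted p = 0.0113) in OA_T0 against MDI. Cmpk2, a mitochondrial nucleotide kinase, had 61.0, 38.2 and 109 in OA_T0, 158, 81.8 and 94.3 in OA, and 233, 228 and 174 in MDI. Its neighbour Rsad2 encodes viperin, which makes a chain-terminating nucleotide, and had 68.3, 21.1 and 134 in OA_T0, 114, 65.7 and 76.3 in OA, and 196, 214 and 155 in MDI. Cmpk2 fell in OA_T0 against MDI at -1.71 (SE 0.31, adjusted p = 0.00709), and Rsad2 was -1.67 (SE 0.44, adjusted p = 0.0607). Samd9l, which blocks translation, had 1885, 1666 and 2926 in OA_T0, 3731, 2659 and 2601 in OA, and 4828, 4815 and 4098 in MDI. Samd9l fell in OA_T0 against MDI at -1.12 (SE 0.17, adjusted p = 0.00165), called in all 9 fits that left out 1 library. In OA against MDI it fell at -0.63 (SE 0.17, adjusted p = 0.035), kept in 5 of 9 (adjusted p = 0.148 without MDI replicate 2).

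The PARP and DTX3L genes all fell in OA_T0 against MDI (4 of 4, beside 1.36% of all tested genes). In OA against MDI 2 fell (3.36%). Parp9 and Dtx3l encode partners that join ADP-ribose and ubiquitin transfer. Parp9 had 576, 632 and 1025 in OA_T0, 1236, 804 and 891 in OA, and 1491, 1379 and 1227 in MDI. Dtx3l had 569.7, 583 and 787 in OA_T0, 1019.5, 660.1 and 724 in OA, and 1263, 1193 and 1048 in MDI. Parp14, a transferase of single ADP-ribose units, had 690.1, 659.5 and 1288 in OA_T0, 1648, 1081 and 1132 in OA, and 2068, 1988 and 1640.5 in MDI. Parp14 lies next to Dtx3l in the genome, and Dtx3l lies next to Parp9. In Parp9 and Parp14, OA replicate 1 overlapped with MDI, and in Dtx3l no library did. The log2 fold changes in OA_T0 against MDI were -0.92, -0.86 and -1.17, and Dtx3l was called in all 9 fits that left out 1 library (adjusted p = 0.043 without OA_T0 replicate 1, the highest of the 9). In OA against MDI Dtx3l fell at -0.56 (SE 0.15, adjusted p = 0.03), kept in 5 of 9. Parp12, another transferase, had 1066, 1000.4 and 1391 in OA_T0, 1471, 1208 and 1234 in OA, and 1991, 1821 and 1612 in MDI. Parp12 fell in both comparisons with MDI, at -0.66 (SE 0.11, adjusted p = 0.00522) in OA_T0 and -0.47 (SE 0.11, adjusted p = 0.0213) in OA.

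Of the 11 remaining genes, for membrane, nuclear body and other proteins, 9 fell in OA_T0 against MDI (1.36% of all tested genes). In OA against MDI 2 fell, Ifi35 and Plscr2 (3.36%). Ifi44 had 464, 256 and 1425 in OA_T0, 1669.9, 784 and 754 in OA, and 3521, 2488 and 1977 in MDI, and was -2.22 (SE 0.44, adjusted p = 0.0138) in OA_T0 against MDI. Rtp4, a chaperone of membrane receptors, had 208, 113 and 559 in OA_T0, 594, 236 and 320.2 in OA, and 1121, 932 and 669 in MDI. Xaf1, which binds an inhibitor of apoptosis, had 239, 158 and 549 in OA_T0, 579, 268 and 350.2 in OA, and 1057, 801 and 687 in MDI. For these 3 genes the MDI libraries lay above all others. Apol9a had 40.1, 18.6 and 133 in OA_T0, 125, 56.1 and 105 in OA, and 263, 201 and 160.0 in MDI. Apol9b had 13.7, 14.5 and 54.7 in OA_T0, 99.9, 33.8 and 56.1 in OA, and 195, 144 and 101 in MDI, and the log2 fold change of Apol9b, -2.61 (SE 0.46, adjusted p = 0.00575) in OA_T0 against MDI, was the lowest of the 51. The Apol9 genes share reads, since 52.3% of the distinct 50-base stretches of Apol9b transcripts occur in Apol9a, so the split between them is uncertain. Lgals3bp, a secreted glycoprotein, had 2216, 1815 and 3525 in OA_T0, 4185, 2400.3 and 3143 in OA, and 5749, 4531 and 3854 in MDI. Sp100, a component of nuclear bodies, had 225, 234 and 483 in OA_T0, 577, 310.4 and 347 in OA, and 724, 636 and 507 in MDI. OA replicate 1 of both overlapped with MDI, and both fell in OA_T0 against MDI, at -0.94 and -1.06. Plscr2, of the phospholipid scramblase family, had 47.6, 53.3 and 78.6 in OA_T0, 64.9, 55.0 and 45.2 in OA, and 103, 123 and 121 in MDI. Ifi35 had 567, 492 and 810.4 in OA_T0, 717, 511 and 621 in OA, and 1040.4, 916 and 853 in MDI. The log2 fold changes of Plscr2 and Ifi35 against MDI were -0.97 and -0.61 in OA_T0 (adjusted p = 0.0249 and 0.0475). In OA they were -1.07 and -0.61 (adjusted p = 0.00705 and 0.0261). In OA_T0 each call was kept in 4 of 9 fits that left out 1 library. In OA that of Plscr2 was kept in 8 of 9 and that of Ifi35 in 5 of 9. Bst2, encoding tetherin, which holds budding virus at the membrane, had 739.8, 568 and 1394 in OA_T0, 1203, 779.5 and 975 in OA, and 1883, 1529.7 and 1332 in MDI. Ifi27 had 985, 887 and 1595 in OA_T0, 1560.3, 1076 and 1316 in OA, and 1595, 1658 and 1628 in MDI. Bst2 and Ifi27 did not pass in OA_T0 against MDI (adjusted p = 0.061 and 0.103), and in both OA_T0 replicate 3 overlapped with MDI.

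The libraries of a group differed widely, and the genes differed together. The SD of log2 values over the 3 libraries had a median of 0.62 in OA_T0, 0.33 in OA and 0.24 in MDI for the 51 genes, beside 0.11, 0.11 and 0.10 for all tested genes. In 46 of 51 genes the SD was widest in OA_T0, as in 35.8% of all tested genes. OA_T0 replicate 3 was the highest of its group in 50 of 51 genes (29.5% of all tested genes), OA replicate 1 in 48 (25.2%) and MDI replicate 1 in 45 (19.5%). The median of the 51 genes, as a log2 difference from the MDI mean, was -1.44, -1.70 and -0.55 in the OA_T0 libraries, -0.43, -1.10 and -0.96 in the OA libraries, and 0.23, 0.00 and -0.23 in the MDI libraries. OA_T0 replicate 3 thus stood nearer to OA replicate 1 than to its own group. It nevertheless lay below every MDI library in 49 of 51 genes, as in 30.5% of all tested genes. The median of all tested genes stayed within -0.04 and 0.03 of the MDI mean in every library. OA_T0 replicate 3 and OA replicate 1 were also the libraries lowest in the ribosomal RNA gene, and the part of this in the result was not tested. Leaving out both was a choice made after seeing the data. Each was the highest of its group in most of the 51 genes. Their loss therefore lowers the OA_T0 and OA means of those genes, and the counts that follow are a description. Without both, 48 of 51 genes fell in OA_T0 against MDI (1.44% of all tested genes) and 47 in OA against MDI (2.71%). Across the 9 libraries, the deviations of a gene from its group means correlated with those of another of the 51 genes at a median r of 0.909. All 51 genes were read in the same libraries, so this is a description. The same r was not computed for other tested genes. Irf1 (r = 0.205 with the median of the 51), Isg20 (0.255) and Uba7 (0.578) followed the others least.

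**Figure D3:**
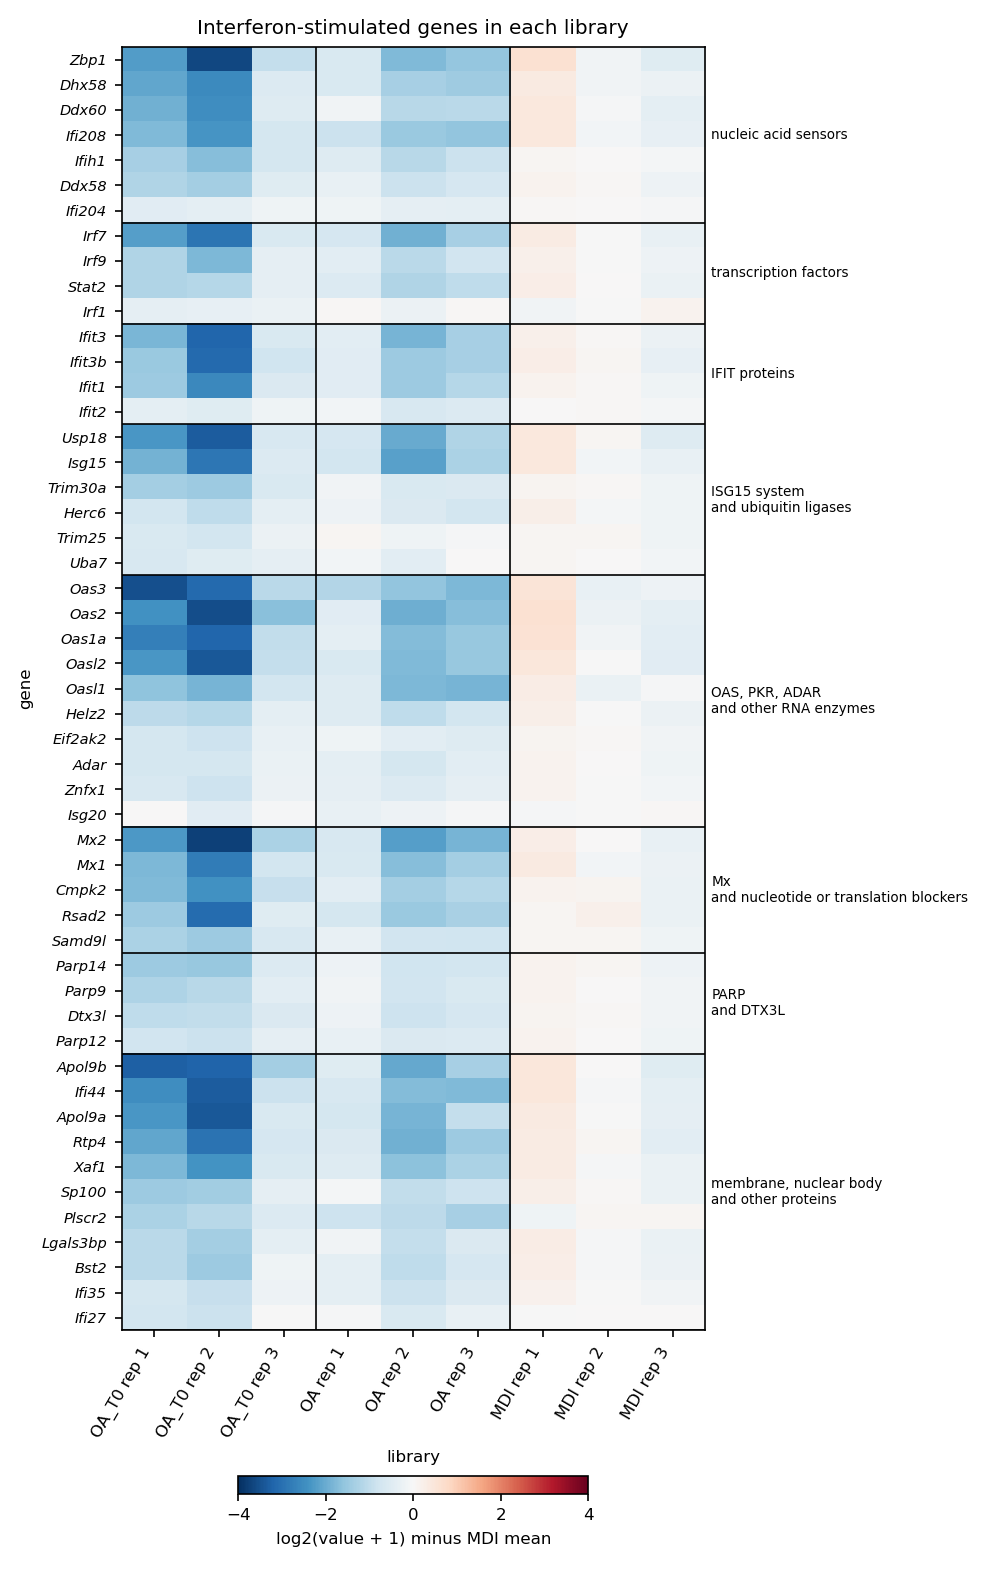
Log2(value + 1) minus the MDI mean (colour; blue is lower) for the 51 genes in rows, by role, and the 9 libraries in columns. OA_T0 replicates 1 and 2 are the darkest columns, and OA_T0 replicate 3 resembles OA replicate 1.

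Changes and spread went together across genes. The 25 genes whose SD in OA_T0 exceeded the 95th percentile of all tested genes had a median log2 fold change of -1.87 in OA_T0 against MDI, and the other 26 had -0.78. Both values are from the same libraries, so this is a description.

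**Figure D4:**
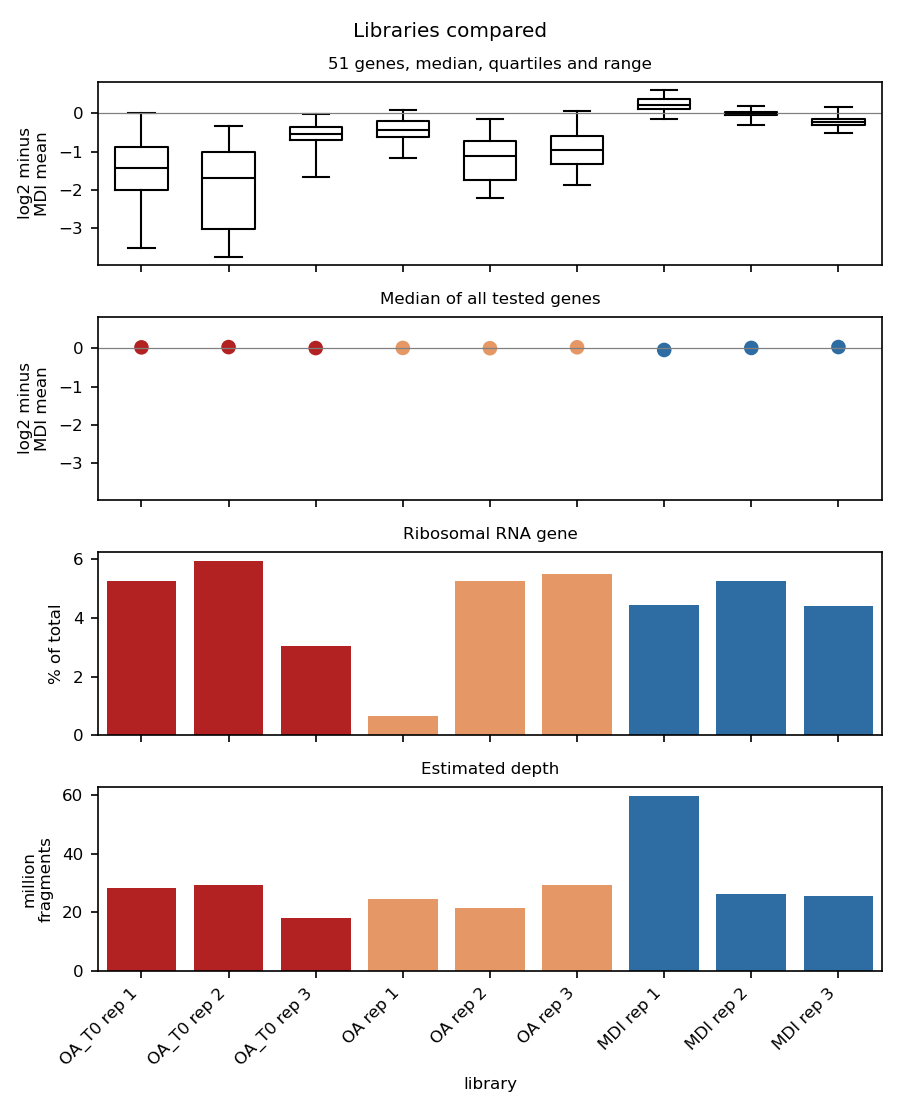
For each library (horizontal axis), from the top: the 51 genes as log2 difference from the MDI mean (box: quartiles, line: median, whiskers: range), the median of all tested genes on the same scale, the share of the ribosomal RNA gene in percent, and estimated depth in fragments (M). The boxes of OA_T0 replicate 3 and OA replicate 1 are the highest of their groups, at medians of -0.55 and -0.43, and their ribosomal shares are the lowest.

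The agonist was compared with oleic acid alone in OA_T0 against OA, where 3 of 51 genes fell and 0 rose, against 6.84% of all tested genes lower and 8.27% higher. The median log2 fold change was -0.43, beside -0.0023 over all tested genes. It was below 0 in 47 of 51 genes, as in 50.4% of all tested genes, and -1 or lower in 4 of 51, as in 1.41%. At an unadjusted p below 0.05, 15 genes were lower (14.3% of all tested genes) and 0 were higher (15.6%). The genes that fell were Irf1 at -0.27 (SE 0.08, adjusted p = 0.0407), Trim25 at -0.48 (SE 0.11, adjusted p = 0.00629) and Trim30a at -0.69 (SE 0.17, adjusted p = 0.0153). In Irf1 and Trim25 all OA_T0 libraries lay below all OA libraries, and in no other of the 51, beside 15.0% of all tested genes, and in 0 of 51 did they lie above (17.1%). Leaving out MDI replicate 2 raised the adjusted p of Irf1 to 0.0615. The same step gave Irf1 0.17 for OA replicate 1, 0.108 for OA replicate 3, 0.146 for OA_T0 replicate 1 and 0.0776 for OA_T0 replicate 2. For Trim30a the adjusted p was 0.0843 with OA replicate 1 left out, 0.092 with OA_T0 replicate 1 and 0.0528 with OA_T0 replicate 2. Trim25 was called in all 9 fits. A single library decided the count. Without OA_T0 replicate 3, 38 of 51 genes fell, against 5.02% of all tested genes, with a median log2 fold change of -0.76, and 40 did not overlap, against 19.8%. Without OA_T0 replicate 3 and OA replicate 1 together, a choice made after seeing the data, 21 fell, against 2.68%. The count was 1 with OA replicate 1 left out (3.51% of all tested genes), 1 with OA_T0 replicate 1 (3.16%), 1 with OA_T0 replicate 2 (8.26%) and 5 with OA replicate 2 (4.23%). It was 0 with no filter on low values (2.29%) and 41 with library weights (18.7%). With no filter, 8 were lower at an unadjusted p below 0.05, and the share over all genes was not determined in that fit. With the filter that share was 14.3%. Stat2, Ifit2, Isg20 and Plscr2 had log2 fold changes above 0, at 0.02, 0.10, 0.01 and 0.10, and did not pass.

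Other genes of the pathway were read from a list of 47 symbols for ligands, receptors, kinases, factors, brakes and sensors upstream of the ligands, of which 37 were matched and 34 tested. In OA_T0 against MDI, 0 of 34 rose and 4 fell (Nlrc5, Tlr3, Myd88 and Trim56), beside 1.25% of all tested genes higher and 1.36% lower. In OA against MDI, 0 of 34 rose and 4 fell (Il6, Jak2, Nlrc5 and Tlr3), beside 3.43% higher and 3.36% lower. In OA_T0 against OA, 1 of 34 rose (Il6) and 3 fell (Pias1, Myd88 and Trim56), beside 8.27% higher and 6.84% lower. Tlr3, an endosomal receptor for double-stranded RNA, had 518, 536 and 639 in OA_T0, 733, 593 and 594 in OA, and 903, 936 and 836 in MDI, at -0.66 (SE 0.10, adjusted p = 0.0019) in OA_T0 and -0.48 (SE 0.10, adjusted p = 0.00888) in OA against MDI. The receptor genes, which carry the signal into the cell, did not pass in any comparison. Ifnar1 averaged 2256 ± 28.0 in OA_T0, 2350.4 ± 115 in OA and 2142 ± 171 in MDI, and Ifnar2 1128 ± 13.3, 1218 ± 58.0 and 1163 ± 44.3 in the same groups (SD, n = 3 each). Ifnb1, the interferon that fibroblasts make, was listed at 0 in all OA_T0 and OA libraries and at 0.45, 1.09 and 2.25 in MDI, below the floor of 3 fragments in each. A difference in Ifnb1 was not detectable at this depth. The listed interferon alpha genes (Ifna1, Ifna2, Ifna4, Ifna5 and Ifna12) were not matched by symbol among the deposited genes, so no value was read for them.

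Levels were compared between genes per kilobase of exon in the GENCODE M21 annotation. Ifi204 was the highest of the 51 in every group, at 3059.9 normalised counts per kilobase in OA_T0, 3121 in OA and 3839 in MDI. Isg15 ranked 7 in OA_T0 and OA and 4 in MDI, with levels of 519, 588 and 1457. Oasl2 ranked 23, 19 and 14, and Ifi44 24, 21 and 17, in OA_T0, OA and MDI. Irf1 stood at rank 10 in OA_T0 and in OA and at rank 16 in MDI, with levels of 359.8, 436 and 448. Oas3 and Oasl1 were the lowest of the 51 in every group. Together the 51 genes made up 0.121% to 0.214% of the deposited total in OA_T0, 0.160% to 0.238% in OA and 0.240% to 0.327% in MDI, so neither OA_T0 nor OA overlapped with MDI in this share.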

How the data were processed

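RNA of 9 libraries of 3T3-L1 cells was sequenced, 3 each in OA_T0, OA and MDI. The authors deposited normalised counts per gene, a signal that is not whole numbers. Per the submitters' processing notes, CASAVA 1.8.2, TopHat, HTSeq and DESeq2 and build mm9 were used, with roles not given. Whole reads were not recovered: 63.1% to 68.9% of values between 5 and 50 steps were whole within 0.05 of a step, a step being the worth of 1 fragment. Depth was estimated as the deposited total over the step, and floors cover counting error only.

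Values were taken as log2(value + 1), which understates changes of low genes, and genes with a mean of at least 10 were tested. Comparisons were made two-sided with limma 3.58.1 (R 4.3.3), letting the variance follow mean intensity and pooling it over the 3 groups, with Benjamini-Hochberg adjustment over all tested genes. The fit was also run on simulated data with independent genes and the same spread in every group. The genes described here moved together and spread most in OA_T0, so that run does not show how the test performs on them. Members and lists were chosen with earlier results of these data known. Genes named with values were the 3 highest per role and any that passed, 47 in all, and the other 4 (Oasl1, Isg20, Rsad2 and Bst2) were added after their values were seen. Paralogs were compared by 50-base stretches of GENCODE M21 transcripts in place of proteins. Alternatives were other pseudocounts, filters, scalings, fits and left-out libraries. Positions are of GRCm38.p6, not the notes' mm9. Of the planned pathway list, 1 gene is not reported here and is left out of its counts.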

Additional observations from a re-analysis of the deposited data

How the results depend on the processing

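Every one of the 51 genes had a log2 fold change below 0 in OA_T0 against MDI under each alternative that tested it. In OA against MDI, 49 to 51 of 51 did, and 48 of 48 tested with a filter at a mean of 50. The median log2 fold change kept its sign in each comparison: leaving out 1 library gave -1.50 to -0.98 in OA_T0 against MDI, -1.09 to -0.68 in OA against MDI and -0.76 to -0.14 in OA_T0 against OA. Leaving out 1 library gave 6 to 47 genes lower in OA_T0 against MDI, 0 to 44 in OA against MDI and 1 to 38 in OA_T0 against OA, with 0 higher in each. The genes without overlap then numbered 48 to 50, 40 to 49 and 2 to 40 lower, in the same order, and 0 to 1 higher in OA_T0 against OA.

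The share of all tested genes called lower follows each count in parentheses. Genes lower in OA against MDI numbered 1 with no filter (0.865%), 8 with equal totals (3.43%), 44 with only the groups compared (4.0%), 29 with library weights (11.1%), 5 with robust variance estimates (3.43%) and 47 without the pair of libraries low in ribosomal RNA (2.71%), a choice made after seeing the data. In OA_T0 against MDI they numbered 0 with no filter (0.141%) and 7 with robust estimates (0.88%). In OA_T0 against OA they numbered 0 with no filter (2.29%), 41 with library weights (18.7%) and 21 without that pair (2.68%), and 1 gene had no overlap with equal totals. The cause was not tested.

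Among the 51 genes, direction changed in these cases, none of them called in the fit where it changed. In OA against MDI, Irf1 was 0.0123 with library weights and -0.106 to 0.0515 without 1 library, and Trim25 -0.126 to 0.0195. In OA_T0 against OA, Stat2 was -0.0136 with quantile normalisation, -0.36 with library weights and -0.0682 without the pair, and Ifit2 and Plscr2 were -0.11 and -0.22 with library weights. Isg20 was -0.0041 with equal totals and -0.0995 without the pair, and Oasl1 was 0.285 with quantile normalisation and 0.0906 without the pair. Without 1 library, Stat2 spanned -0.25 to 0.20, Ifit2 -0.0043 to 0.26, Plscr2 -0.11 to 0.25, Ifi204 -0.12 to 0.0373, Helz2 -0.34 to 0.0327, Ifi35 -0.21 to 0.15, Adar -0.21 to 0.0055, Ifi208 -0.76 to 0.0663, Ifit1 -0.99 to 0.0164, Isg15 -0.99 to 0.18, Bst2 -0.582 to 0.065, Rsad2 -1.10 to 0.203, Oasl1 -0.352 to 0.429 and Isg20 -0.0729 to 0.155.

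With replicate number as a block, 44 genes were lower in OA_T0 against MDI, 17 in OA against MDI and 4 in OA_T0 against OA (1.22%, 2.78% and 6.11% of all tested genes). Deviations of same-numbered libraries correlated at -0.256 to 0.259, and those of libraries with different numbers at -0.23 to 0.25. Deviations from a group mean depend on each other, so these values do not decide whether the numbers pair the libraries. The block changed no count by over 1.5 times. Depth limits Oas3, Oasl1 and Ifnb1.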
